A study of Mus musculus with 2 samples.

Results

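The genes of glycolysis and of the pyruvate dehydrogenase step were compared between normal mouse colon and chemically induced colon adenoma. There were 35 of them among 35529 genes in the table, taken by name: the enzymes from hexokinase to lactate dehydrogenase, the bifunctional phosphofructokinase-2 enzymes, fructose bisphosphatase, 3 subunits of the pyruvate dehydrogenase complex, its 4 kinases, and the transcription factor subunit Hif1a. A row with the exact symbol was found for 34, and the muscle-type pyruvate kinase Pkm was found under its former symbol Pkm2. The control library was made from normal colon of C57BL/6 wild-type mice that received no treatment. The other library was made from adenomas of the colon of C57BL/6 wild-type mice given AOM/DSS, that is azoxymethane, a carcinogen, combined with dextran sodium sulfate, an irritant of the mucosa. RNA of 6 individuals was pooled for each library, and ages are not given in the labels. The text calls them normal colon and adenoma, and the plots control pool and adenoma pool.

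Glycolysis splits glucose into pyruvate in the cytosol. Hexokinase traps the sugar, phosphofructokinase commits it to breakdown, and pyruvate kinase releases pyruvate. Lactate dehydrogenase turns pyruvate into lactate, whereas the pyruvate dehydrogenase complex carries it into mitochondrial oxidation and is switched off when its kinases phosphorylate it. Many of these enzymes exist as isozymes that differ between muscle, liver, brain and epithelium, and several are known targets of the hypoxia-inducible factor HIF-1, whose oxygen-regulated subunit is Hif1a. Colonocytes are known to burn butyrate in mitochondria, and tumours are known for high lactate production.

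The deposited unit is RPKM, which divides a gene's reads by its length and by the size of the library. The recovered totals behind them were 29548883 reads (normal colon) and 33174626 reads (adenoma). With 1 library per group there is no replicate check and no test between conditions. The 95% intervals given beside folds are exact (Clopper-Pearson) and cover counting error only. Folds are ratios of RPKM. The log2 difference is log2((adenoma RPKM + 1)/(control RPKM + 1)), a scale that shrinks differences of genes with low values. The RPKM of normal colon summed to 629215 and those of adenoma to 828667. Rescaling to equal sums therefore lowers every log2 value by up to 0.40. Short transcripts were generally higher in adenoma, with a Spearman's rho of -0.50 between length and log2 difference across 12718 mRNA genes, which are not independent replicates. For that reason values after subtraction of this trend (length-adjusted) are also given. In bulk tissue, fewer cells of a type and less RNA per cell cannot be told apart.

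More members were lower than higher in adenoma, and few of its genes differed by 2-fold. Of the 33 members with at least 1 RPKM in either pool, 1 was at least 2-fold higher on the log2 scale, Ldhb, and 4 were at least 2-fold lower, Eno3, Pdk2, Hk1 and Eno2. Among 12910 mRNA genes past the same filter 10.4% passed 2-fold on the high side and 13.1% on the low side, and the members' 4 of 33 lower is close to that background. Their median log2 difference was -0.36, against -0.17 over all mRNA genes. There were 22 members below 0 and 11 above, while 7497 of 12910 mRNA genes were below 0. At equal sums 29 members and 9332 of 12910 mRNA genes were below 0, and 10 members were at least 2-fold lower and 1 was at least 2-fold higher, against 22.9% and 5.58% of mRNA genes. After length adjustment 28 members and 7735 of 12718 mRNA genes were below 0, with 7 members at least 2-fold lower and 0 higher, against 10.4% and 6.16% of mRNA genes. These 2 sets are not on like lengths: members used a recovered or coding length, other genes their longest transcript. A shorter length, as for Gapdh (1420 bases against 3289), lowers the adjusted value. A longer one, as for Pfkfb3 (5182 against 4801), raises it. Shorter lengths were the more common case among members, as also for Pfkp (3986 against 8681). The mismatch therefore mostly lowers the members' adjusted values. The adjusted counts of members and of all genes are thus not strictly comparable. Pdk4 and Fbp1 did not reach 1 RPKM in either pool.

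**Figure D1:**
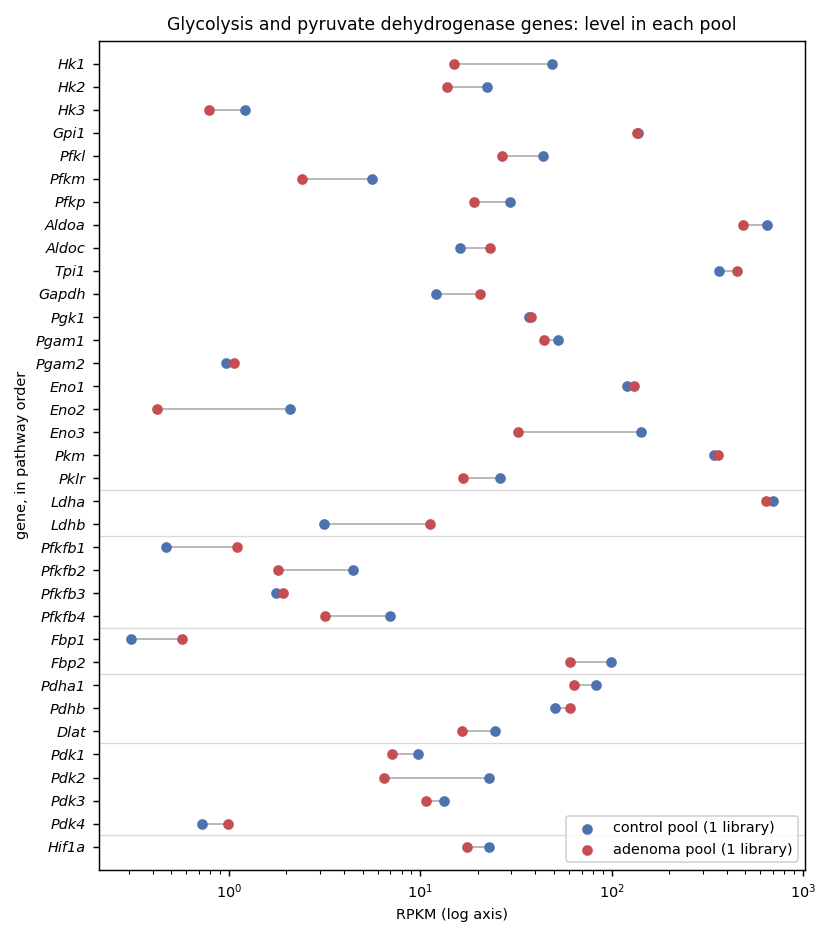
RPKM (log axis) of each of the 35 genes in pathway order, with 1 point for normal colon (blue) and 1 for adenoma (red), each a single library of pooled RNA. Levels run from 0.307 RPKM for Fbp1 to 700 for Ldha, both in normal colon, and the longest lines belong to Hk1, Eno2, Eno3, Ldhb and Pdk2.

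The promoters of the 5 members past 2-fold, and of Ldha, the member with the highest RPKM of its own row in both pools (with near-identical copies summed, Gapdh was higher in adenoma, at 856 against 701 RPKM), are shown because several genes of this pathway are known HIF-1 targets, and the HIF core motif can be looked for in them. Each line gives the 250 bases before a RefSeq transcription start (GRCm38.p6), 5′ to 3′ on the strand of the gene, with every ACGTG or GCGTG on either strand in capitals. The palindrome CACGTG holds the motif on both strands and is also the E-box core that MYC-family factors are known to bind.
Hk1 (chr10:62340422-62340671, minus strand): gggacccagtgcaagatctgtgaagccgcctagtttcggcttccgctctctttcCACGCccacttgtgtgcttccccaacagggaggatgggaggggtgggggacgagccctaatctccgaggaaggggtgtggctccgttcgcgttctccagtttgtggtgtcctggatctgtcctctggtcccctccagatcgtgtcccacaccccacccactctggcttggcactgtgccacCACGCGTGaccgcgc
Pdk2 (chr11:95041372-95041621, minus strand): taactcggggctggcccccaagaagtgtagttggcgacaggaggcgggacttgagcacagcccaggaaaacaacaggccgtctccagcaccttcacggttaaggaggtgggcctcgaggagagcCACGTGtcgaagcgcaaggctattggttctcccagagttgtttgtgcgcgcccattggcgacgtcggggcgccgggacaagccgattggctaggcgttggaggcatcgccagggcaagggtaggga
Eno3 (chr11:70656926-70657175, plus strand): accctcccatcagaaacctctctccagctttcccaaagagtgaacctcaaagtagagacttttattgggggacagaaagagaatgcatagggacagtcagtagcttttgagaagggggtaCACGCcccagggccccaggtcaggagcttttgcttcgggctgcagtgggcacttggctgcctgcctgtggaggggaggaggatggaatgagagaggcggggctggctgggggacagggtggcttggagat
Eno2 (chr6:124769674-124769923, minus strand): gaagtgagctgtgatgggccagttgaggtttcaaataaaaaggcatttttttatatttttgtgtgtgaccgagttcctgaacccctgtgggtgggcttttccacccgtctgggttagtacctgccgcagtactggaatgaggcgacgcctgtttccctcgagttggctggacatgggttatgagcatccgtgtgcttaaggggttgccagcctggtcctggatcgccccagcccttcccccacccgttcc
Ldhb (chr6:142507958-142508207, minus strand): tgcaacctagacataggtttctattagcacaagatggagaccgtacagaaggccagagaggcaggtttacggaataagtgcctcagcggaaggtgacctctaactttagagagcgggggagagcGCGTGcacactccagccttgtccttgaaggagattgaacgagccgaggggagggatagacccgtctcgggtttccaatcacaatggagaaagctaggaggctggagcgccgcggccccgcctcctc
Ldha (chr7:46845554-46845803, plus strand): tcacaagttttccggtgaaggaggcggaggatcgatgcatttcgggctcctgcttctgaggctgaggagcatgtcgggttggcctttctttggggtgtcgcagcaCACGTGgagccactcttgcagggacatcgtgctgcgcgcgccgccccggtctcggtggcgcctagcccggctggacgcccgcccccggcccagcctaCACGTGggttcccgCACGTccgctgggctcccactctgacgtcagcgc
Where a gene has 2 windows (Hk1, Pdk2, Ldha), the one with more matches is shown. The stretch of Ldha held 5 matches, counting both strands of each CACGTG, that of Hk1 held 3, and that of Eno2 held 0. In the RefSeq windows from 250 bases before to 50 after a start, 28 of the 35 members had the motif in at least 1 window (80%), against 46.7% of 27025 genes with a window. Per window it was 69.1% of 55 against 43.8% of 32851. The share of members with the motif was thus above that of all genes, which were matched neither for expression nor for base composition. The 27 members with the motif that passed the filter had a median log2 difference of -0.36. The 6 without it, a small set, had -0.27. A match is a run of letters and not a measured binding site.

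Hexokinase and phosphofructokinase, which start the pathway, were lower in adenoma in all 6 of their genes, beside 7497 of 12910 mRNA genes. Hk1, the broadly expressed hexokinase (chromosome 10, 62268855 to 62379908, GRCm38), stood at 48.8 RPKM in normal colon and 15.0 in adenoma, 3.25-fold lower (3.09 to 3.42). Hk2, the inducible hexokinase often named in tumours, stood at 22.4 and 13.9 RPKM, 1.61-fold lower (1.53 to 1.70). On the log2 scale Hk2 went from -0.65 as deposited to -0.24 after length adjustment, and Hk1 from -1.64 to -1.44. The adjusted median over all mRNA genes was -0.17. The difference in Hk1 was the greater, so that the ratio of Hk1 to Hk2 went from 2.17 to 1.08, and Hk2 took 31.0% of the family's summed RPKM in normal colon and 46.8% in adenoma. Hk3, a hexokinase of myeloid cells, was low, at 1.21 and 0.787 RPKM from 115 and 84 reads. Beside it, the 7 leukocyte markers summed to 52.2 and 336 RPKM, of which S100a8 and S100a9 held 120 and 175 in adenoma, while Ptprc, Itgam and Csf1r were each lower there. Their part in the result was not tested.

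The 2 main phosphofructokinases held similar shares of the family in both pools, while the level of the family was lower in adenoma. Pfkl, the liver-type subunit, stood at 44.0 and 26.7 RPKM, 1.65-fold lower (1.58 to 1.72). Pfkp, the platelet type, stood at 29.5 and 19.1 RPKM, 1.55-fold lower (1.47 to 1.63). Pfkm, the muscle type, stood at 5.58 and 2.40 RPKM, 2.32-fold lower (1.98 to 2.73), which is just under 2-fold on the log2 scale with its pseudocount (-0.95). Pfkl held 55.6% of the family in normal colon and 55.4% in adenoma, and Pfkp 37.3% and 39.6%. The share of the minor Pfkm went from 7.05% to 4.99%. The family sum went from 79.1 to 48.2 RPKM.

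The bifunctional enzymes that make or remove fructose 2,6-bisphosphate, the activator of phosphofructokinase, went in different directions at low levels. Pfkfb4 stood at 6.92 and 3.17 RPKM, 2.18-fold lower (1.91 to 2.48), and Pfkfb2 at 4.48 and 1.80, 2.49-fold lower (2.04 to 3.05). Pfkfb3, the isozyme with the strongest kinase activity and a known hypoxia target, stood at 1.76 and 1.92 RPKM, and its difference turned negative at equal sums (0.08 and -0.17). Pfkfb1 stood at 0.472 and 1.10 RPKM from 24 and 63 reads, 2.34-fold higher (1.44 to 3.91), and its log2 difference of 0.52 came to 0.09 after length adjustment. The 2 isozymes most abundant in normal colon were thus the lower ones, while in adenoma Pfkfb3 stood above Pfkfb2. The ratio of the family sums was 0.587.

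The opposite reaction is catalysed by fructose bisphosphatase, an enzyme of gluconeogenesis. Here the muscle-type gene Fbp2 stood at 99.2 and 60.8 RPKM, 1.63-fold lower (1.55 to 1.72), and after length adjustment it passed 2-fold (-1.34). Fbp1, the liver and kidney type, was at 0.307 and 0.568 RPKM from 13 and 27 reads, an interval of 0.922 to 3.91 on the ratio. Fbp2 made up 99.7% of the pair in normal colon and 99.1% in adenoma. The summed phosphofructokinases over the summed fructose bisphosphatases gave 0.795 in normal colon and 0.785 in adenoma. Those ratios are of values as deposited. After length adjustment Fbp2 stood further below 0 than Pfkl (-0.57), Pfkp (-0.44) and Pfkm (-1.02).

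**Figure D2:**
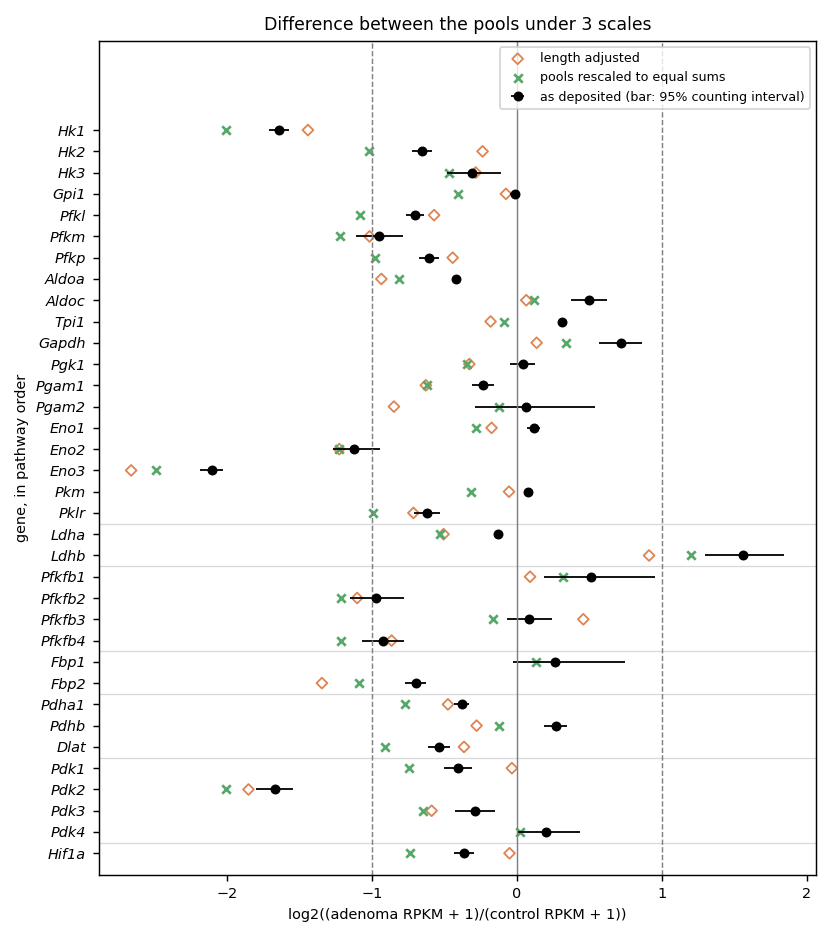
Log2 difference between the pools for each gene in pathway order, as deposited (black, bar: 95% counting interval on the same scale), after length adjustment (diamonds) and with the pools rescaled to equal sums (crosses). Dashed lines mark 2-fold; Hk1, Eno2, Eno3 and Pdk2 lie beyond it on the low side under all 3 scales, and Ldhb lies beyond it on the high side under 2 of the 3.

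The middle and lower enzymes of glycolysis included several abundant members and went in both directions. As deposited, the 10 genes from Tpi1 to pyruvate kinase had a median log2 difference of 0.05. The 9 from hexokinase to aldolase had -0.60. But after length adjustment the medians were -0.48 and -0.44, with 9 of 10 and 8 of 9 below 0. Over all mRNA genes 7735 of 12718 were below 0 on that adjusted scale. Aldoa, the main aldolase, stood at 647 and 484 RPKM, 1.34-fold lower (1.31 to 1.36), and Aldoc, the brain-type aldolase, at 16.1 and 23.2, 1.44-fold higher (1.32 to 1.57). After length adjustment Aldoa came to -0.93 and Aldoc to 0.07 on the log2 scale. Gpi1, the glucose phosphate isomerase, stood at 137 and 136 RPKM. Tpi1, the triose phosphate isomerase, stood at 366 and 455 RPKM, but its log2 difference of 0.31 became -0.09 at equal sums and -0.18 after length adjustment. Phosphoglycerate kinase, Pgk1, at 37.1 and 38.1 RPKM, and pyruvate kinase Pkm, at 342 and 362, turned the same way, to -0.35 and -0.32 at equal sums. Tpi1, Pgk1 and Pkm give no direction that holds under every scale. Pgam1, the main phosphoglycerate mutase, was 1.18-fold lower (1.12 to 1.24), or -0.63 on the log2 scale after length adjustment. The muscle-type Pgam2 was at 0.971 and 1.06 RPKM from 26 and 32 reads, and its log2 difference of 0.07 turned to -0.12 at equal sums and -0.85 after length adjustment.

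The make-up of the enolase family differed between the pools. Eno3, the muscle-type enolase (chromosome 11, 70657202 to 70662513, GRCm38), stood at 142 RPKM in normal colon and 32.3 in adenoma, from 6148 and 1569 whole reads. It was 4.40-fold lower (4.16 to 4.65), the most negative log2 difference of the members. Eno1, the ubiquitous enolase, was at 121 and 131 RPKM, and its log2 difference of 0.12 turned to -0.28 at equal sums and to -0.17 after length adjustment. Eno3 thus held 53.6% of the 3 enolase rows in normal colon and 19.7% in adenoma. With the near-identical copies of Eno1 counted, the shares were 22.1% and 5.21%. The neuronal enolase Eno2 was at 2.10 and 0.424 RPKM from 163 and 37 reads, 4.95-fold lower (3.44 to 7.27).

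Markers of muscle and nerve give the tissue beside these 2 isozymes. The 6 smooth muscle markers summed to 2127 RPKM in normal colon and 1769 in adenoma, and 1 of them, Myh11, was at least 2-fold lower (178 and 61.0 RPKM). The 5 skeletal muscle markers were low, with sums of 14.3 and 16.6 RPKM. They did not move together: Ckm stood at 8.33 and 7.47 RPKM, Mylpf was 5.26-fold higher (3.39 to 8.82), and Myh4 was at 0.00563 and 0.00334. The 8 neuron and glia markers summed to 24.3 and 15.9 RPKM; Snap25, a presynaptic SNARE protein, was 4.80-fold lower (3.89 to 6.03), and Uchl1 stood at 7.46 and 6.96. The epithelial markers were lower in 7 of 7, beside 7497 of 12910 mRNA genes. Their sums were 6219 and 3637 RPKM, and Epcam itself stood at 752 and 646. At least 2-fold lower were 5 of these markers, beside 13.1% of mRNA genes. The 6 exocrine pancreas markers summed to less than 2 RPKM in each pool, with Cpa1 and Ctrb1 listed at 0 in both. The part of these cell types in the enolase values was not tested.

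Pyruvate kinase was almost wholly of the Pkm type. Pklr, the liver and red cell gene, stood at 26.3 and 16.8 RPKM, 1.57-fold lower (1.47 to 1.68), and its share went from 7.13% to 4.43%. The deposited values do not separate the splice forms PKM1 and PKM2.

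Lactate dehydrogenase, which forms lactate, was dominated by Ldha, and the minor gene Ldhb held the one large positive difference. Ldha (chromosome 7, 46841475 to 46855627, GRCm38) stood at 700 and 638 RPKM, 1.10-fold lower (1.08 to 1.11), and only 63 mRNA genes in normal colon and 106 in adenoma had a higher RPKM. The log2 difference of Ldha, -0.13 as deposited, came to -0.53 at equal sums and -0.50 after length adjustment. Ldhb, the heart-type subunit that favours conversion of lactate to pyruvate (chromosome 6, 142490249 to 142507957), stood at 3.15 and 11.3 RPKM, 3.57-fold higher (2.92 to 4.41). The ratio of Ldha to Ldhb was 222 in normal colon and 56.7 in adenoma. Even so, Ldhb was 0.449% and 1.73% of the pair. Its log2 difference of 1.56 was 1.20 at equal sums and 0.91, just under 2-fold, after length adjustment.

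**Figure D3:**
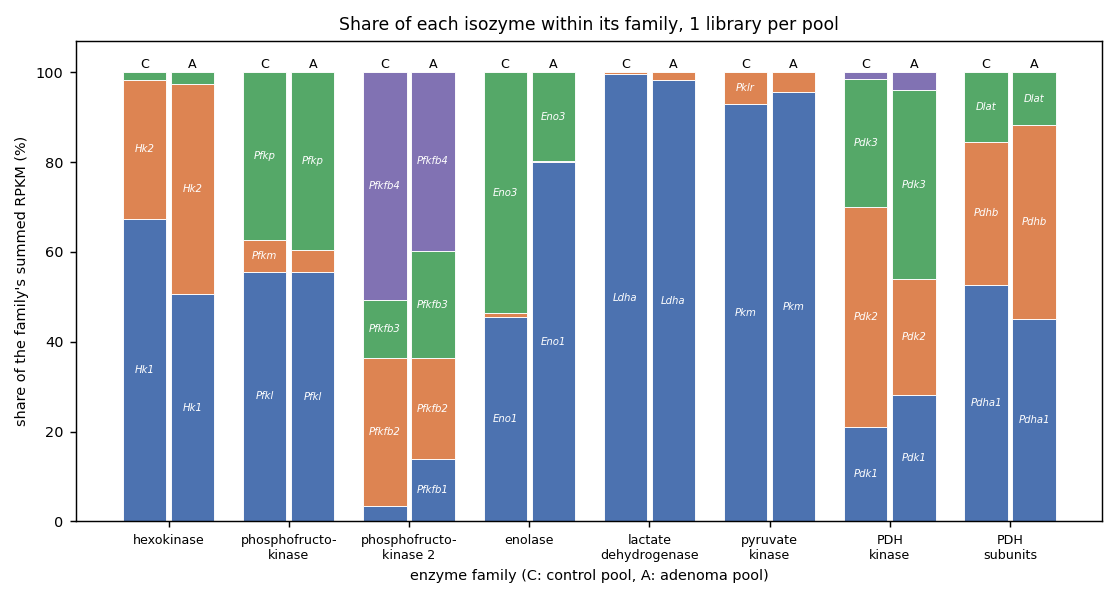
Share of each isozyme in the summed RPKM of its family (%), control pool (C) beside adenoma pool (A), 1 library each; stacks add up to 100% and slices under 7% carry no name. Shares do not depend on the scaling of the libraries: Eno3 goes from 53.6% to 19.7%, Pdk2 from 49.1% to 25.7% and Hk1 from 67.4% to 50.5%, while Pfkl stays at 55.6% and 55.4%.

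At the entry to mitochondrial oxidation the subunits of the pyruvate dehydrogenase complex differed little. Pdha1, the catalytic alpha subunit, stood at 83.3 and 63.8 RPKM, 1.31-fold lower (1.26 to 1.35). Pdhb, its partner beta subunit, stood at 50.4 and 61.0 RPKM, 1.21-fold higher (1.14 to 1.28), but became -0.12 on the log2 scale at equal sums and -0.28 after length adjustment. Dlat, the acetyltransferase core, stood at 24.5 and 16.6 RPKM, 1.47-fold lower (1.40 to 1.56). On the log2 scale Pdha1 and Dlat were at -0.77 and -0.91 at equal sums, and at -0.47 and -0.36 after length adjustment.

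The kinases that switch the complex off were lower in sum, and Pdk2 carried most of that. Pdk2, the widely expressed kinase (chromosome 11, 95026258 to 95041354, GRCm38), stood at 22.9 RPKM in normal colon and 6.50 in adenoma, from 1529 and 488 whole reads, 3.52-fold lower (3.17 to 3.90). Pdk1, a known HIF-1 target, stood at 9.76 and 7.13 RPKM, 1.37-fold lower (1.27 to 1.48), and came to -0.03 after length adjustment. Pdk3 stood at 13.2 and 10.7 RPKM, 1.24-fold lower (1.12 to 1.38), and came to -0.59 after length adjustment. Pdk4, the kinase induced by fasting, was at 0.725 and 0.986 RPKM. By RPKM as deposited, the most abundant kinase was Pdk2 in normal colon, at 49.1% of the family, and Pdk3 in adenoma, at 42.2%. The lead of Pdk3 depends on the scale. By share of reads, not divided by length, Pdk1 held 48.1% in adenoma and Pdk3 28.1%. The 4 kinases summed to 0.559 of the Pdha1 level in normal colon and 0.396 in adenoma.

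Hif1a was itself slightly lower, at 23.0 and 17.7 RPKM, 1.30-fold (1.24 to 1.37), and at -0.05 after length adjustment. HIF-1 is regulated mainly through the stability of this protein, which RNA does not report. Of the other 9 HIF subunits and oxygen sensors 7 passed the filter. Past 2-fold were 1 on the low side and 0 on the high side, beside 13.1% and 10.4% of mRNA genes. The lower gene was Epas1, which encodes HIF-2 alpha, at 29.0 and 7.22 RPKM, 4.01-fold lower (3.78 to 4.27). Egln2, the most abundant of these genes, stood at 33.6 and 36.6 RPKM, and its log2 difference of 0.12 turned to -0.27 at equal sums and -0.14 after length adjustment. Of 16 further HIF target genes 2 passed 2-fold on the low side and 0 on the high side, beside 13.1% and 10.4% of mRNA genes, with a median log2 difference of -0.33. That list does not hold Slc16a3, a known HIF target counted among the carriers, which was past 2-fold on the high side. They were the growth factor Vegfa, at 11.5 and 4.19 RPKM, and the carbonic anhydrase Car9, at 26.1 and 10.6. The most abundant targets were Ndrg1, at 49.3 and 33.9 RPKM, and the stress gene Ddit4, at 36.9 and 59.5.

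Enzymes that neighbour the pathway went in both directions, and Pck1 differed more than any member. Of 19 related enzymes 1 was a second name of Gpi1, and 12 of the other 18 passed the filter. Past 2-fold were 2 on the low side and 0 on the high side, beside 13.1% and 10.4% of mRNA genes. Their median was -0.21, beside -0.17 over all mRNA genes. Pck1, the cytosolic phosphoenolpyruvate carboxykinase of gluconeogenesis, stood at 52.0 and 5.94 RPKM, 8.76-fold lower (8.01 to 9.61). Pyruvate carboxylase, Pcx, stood at 38.0 and 11.0 RPKM, 3.45-fold lower (3.25 to 3.66). There were 5 of the 12 above 0, beside 5413 of 12910 mRNA genes. Ldhd, which acts on D-lactate, was 1.97-fold higher (1.71 to 2.28), or 0.92 on the log2 scale after length adjustment. Bpgm, the bisphosphoglycerate mutase, stood at 25.1 and 42.3 RPKM, 1.68-fold higher (1.59 to 1.79), and Minpp1, an inositol phosphate phosphatase, was 1.45-fold higher (1.36 to 1.54). Of the glucose-6-phosphatases, which release free glucose, G6pc was listed at 0 in both pools and the broadly expressed G6pc3 stood at 27.5 and 19.9 RPKM.

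Genes around the pyruvate dehydrogenase complex went both ways. Of the 7 past the filter 1 was past 2-fold on the high side and 2 on the low side, beside 10.4% and 13.1% of mRNA genes. The mitochondrial pyruvate carrier genes were higher. Mpc1 (listed as Brp44l) stood at 23.0 and 49.2 RPKM, 2.14-fold higher (1.96 to 2.35), and Mpc2 (listed as Brp44) at 51.0 and 94.6, 1.86-fold higher (1.80 to 1.91). After length adjustment Mpc1 came to 0.18 on the log2 scale and Mpc2 to 1.05, and at equal sums to 0.68 and 0.49. The size of this difference thus depends on the scale. For both genes the longest annotated transcript was taken as the length, which need not be the form counted. Their length-adjusted values and intervals are therefore uncertain, and the 1.05 of Mpc2 is not a firm value. Of the phosphatases that switch the complex on, Pdp2 was lower, at 5.63 and 2.27 RPKM, and Pdp1 was higher, at 2.81 and 4.25, 1.51-fold (1.33 to 1.73). After length adjustment Pdp2 went from -1.02 to -0.58 on the log2 scale, under 2-fold, and Pdp1 from 0.46 to 0.68. Pdpr, a regulatory subunit of pyruvate dehydrogenase phosphatase, stood at 9.63 and 2.52 RPKM.

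Among carriers of glucose and lactate, 2 lactate carriers differed in opposite directions. Slc16a3 (MCT4), known in glycolytic cells and as a HIF target, stood at 1.63 RPKM in normal colon and 17.1 in adenoma, 10.5-fold higher (9.11 to 12.2). Slc16a1 (MCT1), which also carries butyrate into colonocytes, stood at 56.5 and 17.2 RPKM, 3.28-fold lower (3.14 to 3.43). The first was far below the second in normal colon and close to it in adenoma. The sodium-glucose carrier Slc5a1 was 2.87-fold lower (2.71 to 3.03), and the glucose carrier Slc2a1 stood at 22.9 and 13.7 RPKM. Bsg, the chaperone of the lactate carriers and the most abundant gene of the list, was at 412 and 498 RPKM and turned negative after length adjustment (-0.25) and at equal sums (-0.12). Of the 10 genes 6 passed the filter, 1 of them past 2-fold on the high side and 2 on the low side. Over all mRNA genes the shares were 10.4% and 13.1%.

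**Figure D4:**
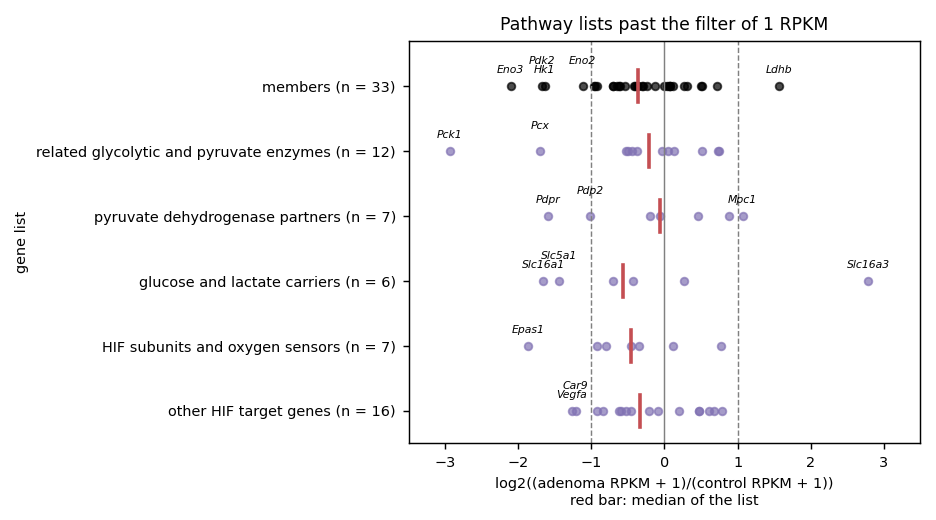
Log2 difference of each gene past 1 RPKM for the 33 members (black) and 5 lists of neighbouring genes (purple), with the list median as a red bar and names for genes past 2-fold (dashed lines). Pck1 at -2.93 and Slc16a3 at 2.79 lie outside the range of the members.

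Several abundant enzymes had near-identical copies with rows of their own, among which reads may have been divided. Such a division and RNA made from the copies themselves could not be told apart. Glycolytic genes are known for processed pseudogenes, intronless copies made from their RNA. In GENCODE M21 10 of the 35 members had at least 1 other gene elsewhere whose transcript matched theirs over at least 300 bases at 95% identity or more. Gapdh, the glyceraldehyde phosphate dehydrogenase, had 77, of which 74 had a row in the table. Its own row was at 12.1 and 20.5 RPKM. The rows of its copies summed to 538 and 836 RPKM, so the Gapdh row held 2.19% and 2.39% of the total. Gapdh with its copies stood at 550 and 856 RPKM, a ratio of 1.56, close to the 1.70 (1.52 to 1.89) of its own row.

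Other members shared this pattern to a smaller degree. The Pgk1 row held 14.1% and 15.9% of the sum with its copies, and the Pgam1 row 41.0% and 40.0%. The Eno1 row held 24.2% and 22.3%, beside the pseudogene Gm4735 at 232 and 254 RPKM and the protein-coding copy Eno1b, listed as Gm5506, at 137 and 193. The rows of Ldha, Pkm and Tpi1 held 90.9%, 80.2% and 88.7% in normal colon. With copies summed, Pgk1 went from 0.04 to -0.13 on the log2 scale and Gpi1 from -0.01 to 0.07. The values of these genes are therefore uncertain as levels of the single gene.

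The fractions of reads bear on the same point. At the recovered read totals, 14 members had a transcript length at which both values were whole reads, and 0 of these had near-identical copies. For 12 members the values were whole multiples of a fraction of a read (a fraction of 1/12 at the smallest), and 3 of these had copies. No length could be found for the other 9, of which 7 had copies (Pgam1, Eno1, Pkm, Ldha, Gpi1, Gapdh and Pgk1). Eno3, Eno2 and Pdk2 were among those with whole reads, whereas Hk1 was counted in sixths and Ldhb in twelfths of a read. Ldhb had 1 copy, Gm5514, at 1.79 and 5.03 RPKM, and with it the ratio was 3.29. How the authors divided reads is not given in the sources used here.

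**Figure D5:**
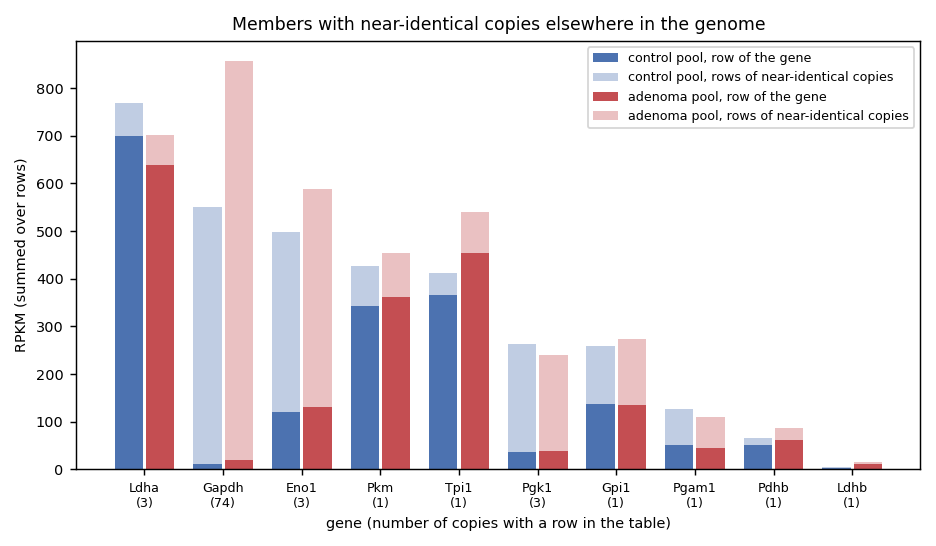
RPKM of the gene's own row (solid) and of the rows of its near-identical copies (pale, stacked on top) for the 10 members with such copies, control pool in blue and adenoma pool in red, 1 library each. The Gapdh row is a thin base of 12.1 and 20.5 RPKM under copies that sum to 538 and 836, while Ldha is almost all its own row.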

How the data were processed

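RNA was measured in 2 libraries, each pooled from 6 individuals, per the labels. The authors deposited 1 table of RPKM, per the file headers and its name. The submitters' processing notes name GRCh37, a human build, although the symbols are those of mouse. The labels name both Proton sequencing and Illumina library protocols, so the platform is in doubt. The aligner, counting method and annotation are not given in the sources used here.

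Read totals were recovered from small RNA genes of known RefSeq length (whole reads within 0.01 for 129 of 182 in normal colon, 144 of 200 in adenoma). For each member, lengths within 10% of a GENCODE M21 coding transcript were searched for one at which both values were whole multiples of 1 read or of a fraction down to 1/12, within 0.0002. Where several fitted, one giving whole reads was preferred, then the one nearest an annotated length. The longest coding transcript was used for the other 9 members, whose reads and intervals are approximate. Genes outside the member list used the longest GENCODE transcript, so their intervals and length-adjusted values are approximate. The filter was 1 RPKM in either pool, passed by 16517 genes. Length adjustment subtracted the medians of 20 length bins of mRNA genes, interpolated between bins, and added back their overall median. Copies were found with BLAST 2.17.0. Python 3.11.15, pandas 2.3.3, NumPy 2.4.6, SciPy 1.17.1 and matplotlib 3.10.9 were used, and the steps were tested on simulated data. Coordinates are those of GENCODE M21 or RefSeq on GRCm38, not the authors'. Sequences come from RefSeq, where all 35 members had a promoter window.

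The members and lists were chosen with earlier results of these data known. All members are described; of the other lists the text names genes past 2-fold, the 2 most abundant by the higher pool, and any of the related enzymes. Some are left to the plots. Single markers, Slc2a1 and Pdp1 were named after their values were seen. Pgm1 and Pgm2 have exchanged names between annotations and are not described. A gene of the related enzymes was left out of that list, its counts and its median, and is not reported here.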

Additional observations from a re-analysis of the deposited data

How the results depend on the processing

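With 1 library per group, differences between animals and between library preparations were not measured, and depth limits mainly the members under 100 reads in a pool (Eno2, Hk3, Pfkfb1, Pgam2, Pdk4 and Fbp1). The count of members at least 2-fold higher (1) and lower (4) and their median (-0.36) moved with the settings, and the median stayed negative in each. With a pseudocount of 0.1 RPKM they were 2, 7 and -0.38, and with 5 RPKM 0 were higher and the median was -0.28. The median was -0.31 without a filter, -0.38 with a filter at 5 RPKM, -0.34 with median ratio scaling and -0.32 with a trimmed mean of M values. At equal sums 10 were lower, with a median of -0.74. After length adjustment 0 were higher and 7 lower, with a median of -0.44. At 1.5-fold 2 were higher and 12 lower, and at 4-fold 0 and 1. For these thresholds and the other pseudocounts no share over all mRNA genes was worked out. Those counts therefore cannot be set against a background. Summing near-identical copies, an alternative chosen after seeing the data, left the counts and the median as they were. Of 33 members 21 were lower and 4 higher under every setting run, and 8 changed sign under at least 1 (Pfkfb3, Pgam2, Eno1, Pkm, Pdhb, Gpi1, Tpi1 and Pgk1). Shares by reads in place of RPKM moved beyond counting error for 49 of 60 values, by the lengths of the isozymes. No paired analysis was possible because each group holds 1 library.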

Other observations

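Gapdh is widely used as a reference gene for RNA levels. Its own row was 1.70-fold higher in adenoma (1.52 to 1.89), and 1.56-fold higher with its copies summed, so that values expressed relative to Gapdh would stand lower in adenoma by those factors. At equal sums its log2 difference was 0.34 and after length adjustment 0.14. Among its copies the Gapdh row held 2.19% in normal colon and 2.39% in adenoma, the Eno1 row 24.2% and 22.3%, and the Pgam1 row 41.0% and 40.0%. The share of Pdhb went from 76.1% to 70.3%, that of Tpi1 from 88.7% to 84.3% and that of Gpi1 from 52.8% to 49.7%. That of Ldhb was higher in adenoma, at 63.8% and 69.1%.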
